A study of Mus musculus with 4 samples.

Results

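Hox genes encode homeodomain transcription factors and lie in 4 clusters, HoxA to HoxD. The 39 members described here are the protein-coding genes whose symbol is Hoxa, Hoxb, Hoxc or Hoxd followed by a number, among 34547 genes (21957 of them protein-coding) in the deposited tables. They were chosen by name and not by any measured value. HoxA holds 11 members (chr6:52155590-52260880, minus strand), HoxB 10 (chr11:96194316-96368256, plus strand), HoxC 9 (chr15:102921103-103036852, plus strand) and HoxD 9 (chr2:74668310-74765142, plus strand), in GENCODE M21 coordinates on GRCm38, the assembly that is also called mm10. RNA was sequenced from cartilage of C57BL/6 mouse forelimbs, cut from cryosections by laser microdissection. Proliferating chondrocytes (PC) came from day E14.5 of development (replicates 1 and 2) and hypertrophic chondrocytes (HC) from day E15.5 (replicates 3 and 4), so zone and stage cannot be told apart. The labels give no further genotype or treatment, and the sources used here do not give how each zone was recognised or which skeletal elements were cut. Nothing in the labels says that the replicates came from separate animals, so p-values measure only the spread between these samples, which may be technical.

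A Hox gene is numbered by its paralogue group, from 1 to 13, which is also its place along the cluster. Genes with low numbers are active further towards the head of the embryo, and genes with high numbers further towards the tail. In the limb, HoxA and HoxD genes of the high-numbered groups act again along the axis from shoulder to digits: groups 9 and 10 in the upper arm, group 11 in the forearm and group 13 in the hand. Hox proteins bind DNA with partner homeodomain proteins of the Pbx and Meis families. Polycomb complexes keep Hox genes silent, and Trithorax proteins keep them active. Chondrocytes of the growth plate first divide, then stop dividing and enlarge, which is the step from PC to HC.

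The sequences below are the promoters of 3 HoxA genes whose levels went different ways between the libraries, and the small RNA encoded inside one of them. Each promoter runs from 250 bases before to 50 bases after the RefSeq start (GRCm38.p6, minus strand, printed 5′ to 3′), with every CpG dinucleotide in capitals. Hoxa9, chr6:52227321-52227620, starts inside the gene span that GENCODE gives, chr6:52223100-52231089. Hoxa11 is chr6:52245761-52246060 and Hoxa13 is chr6:52260831-52261130.
Hoxa9 promoter: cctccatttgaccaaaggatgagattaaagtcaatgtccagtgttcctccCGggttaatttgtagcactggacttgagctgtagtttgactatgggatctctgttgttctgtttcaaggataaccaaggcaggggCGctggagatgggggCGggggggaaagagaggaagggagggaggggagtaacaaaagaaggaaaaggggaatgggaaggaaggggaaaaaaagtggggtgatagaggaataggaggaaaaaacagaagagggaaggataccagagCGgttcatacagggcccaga
Hoxa11 promoter: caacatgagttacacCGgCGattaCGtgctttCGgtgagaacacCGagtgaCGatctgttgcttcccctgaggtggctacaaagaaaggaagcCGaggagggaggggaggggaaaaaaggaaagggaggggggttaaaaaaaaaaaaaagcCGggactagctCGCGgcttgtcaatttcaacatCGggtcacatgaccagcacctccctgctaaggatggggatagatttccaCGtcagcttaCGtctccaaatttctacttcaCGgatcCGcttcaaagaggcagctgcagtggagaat
Hoxa13 promoter: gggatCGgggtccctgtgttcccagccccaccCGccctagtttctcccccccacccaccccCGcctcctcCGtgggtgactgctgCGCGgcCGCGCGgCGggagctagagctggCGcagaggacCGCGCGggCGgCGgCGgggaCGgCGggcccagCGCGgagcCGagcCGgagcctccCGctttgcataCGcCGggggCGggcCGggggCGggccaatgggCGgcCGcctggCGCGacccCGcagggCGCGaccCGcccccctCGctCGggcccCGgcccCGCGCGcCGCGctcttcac
mmu-miR-196b-5p: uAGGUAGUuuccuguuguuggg
mmu-miR-196a-5p: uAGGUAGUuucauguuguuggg
In the 2 microRNAs the capitals mark the seed, bases 2 to 8, which both share. The precursor of miR-196b (mature form at chr6:52230129-52230150, minus strand) lies in an exon of the transcripts Hoxa9-204 and Hoxa9-205. miR-196a is encoded in the HoxB and HoxC clusters. Neither microRNA was itself measured.

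The Hoxa9 promoter held 4 CpG and was 49.7% G or C, the Hoxa11 promoter 15 CpG and 51.0%, and the Hoxa13 promoter 45 CpG and 81.0%. The RefSeq table had 24 promoters for 22 of the 39 members. Their median content of G and C was 57.7%, beside 52.7% over all 32851 promoters of the table. The letters CCAAT, searched on both strands, were in 15 of the 24 Hox promoters (62.5%) and in 37.4% of all promoters. TATAAA was in 4 (16.7%), beside 13.6% of all. TGATTNAT, a core that Pbx and Hox proteins can bind together, was in 2 (8.33%) beside 3.22%, and TGACAG, the Meis core, in 2 (8.33%) beside 19.2%. These are matches of letters only. Of the 3 promoters printed, Hoxa13 held CCAAT, and the other pair held none of the 4 motifs.

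Libraries ranged from 15246529 estimated counts (HC replicate 3) to 36644496 (PC replicate 2), and HC was the shallower group. The share of mitochondrial genes lay between 8.81% (PC replicate 1) and 20.16% (HC replicate 3). Defining markers followed the labels: the 10 hypertrophic markers, Col10a1 and Ihh among them, summed to 547.3 and 1441 TPM in PC and to 14260 and 24400 TPM in HC, and none of the 14 chondrocyte markers was at 0 in any library. The chondrocyte markers summed to 25830 and 17560 TPM in PC and to 8414 and 14260 TPM in HC, with a median log2 fold change of -1.24. Of these 14, Sox5 fell, none rose in edgeR, and 11 had both HC libraries below both PC libraries in CPM. TPM is a level per transcript length on a fixed total. Markers of other cells differed too. Summed TPM of the 17 perichondrium and fibrous mesenchyme markers was 616.7 and 631.7 in PC and 2157 and 1260 in HC, and 3 of them (HC replicate 3) and 1 (HC replicate 4) were at 0. The higher sum in HC lay in the type I collagen genes Col1a1 and Col1a2, with 193.1 and 280.8 against 1858 and 985.7, while the other 15 summed to 423.6 and 351.0 against 299.3 and 274.5. The same sums were 44.95 and 71.71 against 247.5 and 121.7 for skeletal muscle, 25.35 and 19.16 against 97.16 and 75.36 for endothelium, 68.26 and 100.9 against 457.9 and 684.4 for red blood cells, and 15.62 and 45.88 against 335.6 and 315.4 for macrophages and osteoclasts. Of 7 osteoblast markers tested 2 rose and none fell. Nerve markers summed to 15.09 and 12.21 against 2.545 and 3.807, tendon and joint markers to 53.22 and 57.78 against 33.32 and 47.29, and epidermis markers to 11.49 and 6.852 against 13.11 and 45.59. Their part in the Hox differences described next was not tested. In cut tissue, fewer cells of a type and less RNA per cell cannot be told apart.

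Hox levels summed over the clusters were lower in both HC libraries. Fewer Hox genes were seen there, as were fewer genes of any kind. A count of any size was found for 35 and 33 of the 39 members in PC replicates 1 and 2 and for 29 and 30 in HC replicates 3 and 4, with HC the shallower group. Over all genes a count was found for 21352 and 21154 in PC and for 17012 and 17945 in HC. A level of at least 5 TPM was reached by 12 and 10 members in PC and by 2 and 3 in HC. The share of all genes at that level is not given here. Over all 39 members the TPM summed to 255.6 and 187.4 in PC and to 49.21 and 85.51 in HC, a log2 ratio of the group means of -1.72. The same sum in CPM, which corrects counts for library size and composition by the TMM method of edgeR, was 236.1 and 211.8 in PC and 96.12 and 103.7 in HC. On both scales the HC libraries lay below the PC libraries.

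HoxA and HoxD carried most of the Hox RNA. HoxA summed to 157.9 and 120.4 TPM in PC and to 25.18 and 64.15 TPM in HC. HoxD summed to 72.01 and 48.28 TPM in PC and to 13.81 and 7.762 TPM in HC, which was 28.18%, 25.77%, 28.06% and 9.077% of all Hox TPM in the 4 libraries. HoxC summed to 16.89 and 12.65 TPM in PC and to 5.025 and 7.945 TPM in HC. In TPM those 3 clusters, and HoxB as well, were lower in both HC libraries than in both PC libraries. HoxB summed to 8.742 and 6.045 TPM in PC and to 5.197 and 5.655 TPM in HC, a log2 ratio of -0.45 that turned to 0.13 when CPM was summed instead.

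**Figure D1:**
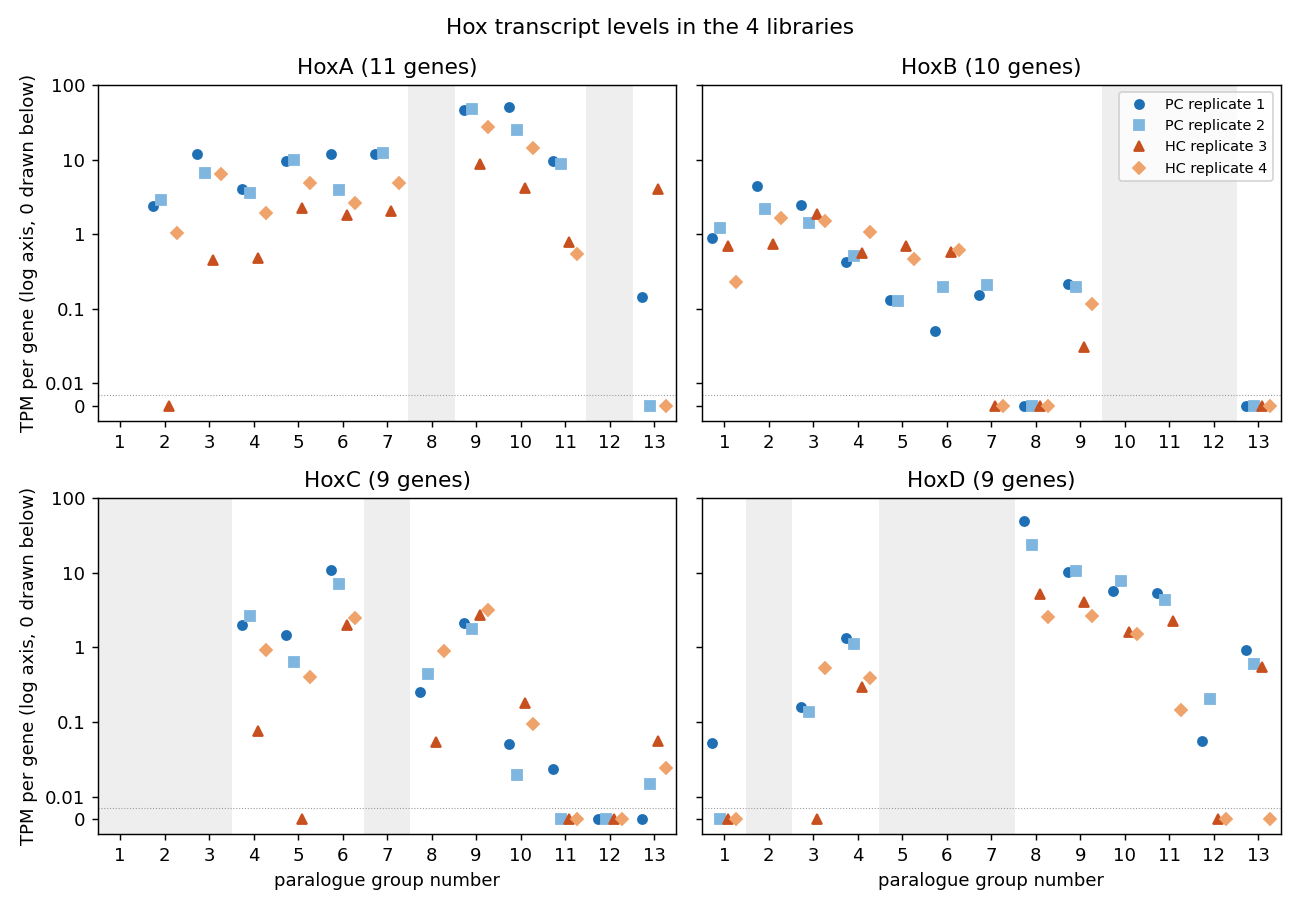
Level of each Hox gene in TPM (vertical log axis, genes at 0 drawn on the lowest line) by paralogue group (horizontal axis), 1 panel per cluster, with 1 point per library and grey bands where the mouse has no such gene (1 HoxA gene is not drawn). In HoxA and HoxD most PC points lie above the HC points, while HoxB genes from group 4 upward reach at most 1.077 TPM, and Hoxa13 is high in HC replicate 3 alone (4.029 TPM).

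The order of the levels was taken from the mean TPM of each group. By that measure, Hoxa9, Hoxa10 and Hoxd8 ranked 1, 2 and 3 in PC and again in HC, although neighbouring ranks overlapped. Hoxa9 had 46.2 and 47.48 TPM in PC, and Hoxa10 50.08 and 24.71 TPM. In HC the rank of Hoxd8 came from replicate 3, where it was 2, and in replicate 4 it was 9. Hoxa11 ranked 8 in PC and 18 in HC. Hoxc9 ranked 17 in PC and 8 in HC. Hoxa13 ranked 32 in PC and 11 in HC, through 1 library. Hoxb8, Hoxb13 and Hoxc12 had no count in any library.

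For the test of HC against PC, 27 of the 39 members had enough counts. They had to reach 0.385 CPM in at least 2 libraries. Of the 27, 18 reached it in all 4 libraries and 6 in both PC libraries and 1 HC library. Hoxb5 and Hoxb6 reached it in the HC libraries alone, and Hoxc8 in 1 library of each group. The other 12 members (Hoxa13, Hoxb7, Hoxb8, Hoxb9, Hoxb13, Hoxc10, Hoxc11, Hoxc12, Hoxc13, Hoxd1, Hoxd3 and Hoxd12) were not tested.

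Hoxa11 fell, and it was the only member to pass the test (edgeR's quasi-likelihood F-test, Benjamini-Hochberg adjusted over 16607 genes, threshold 0.05). Hoxa11 (chr6:52242106-52245810, with all its counts on the coding transcript Hoxa11-201) is needed together with Hoxd11 for the radius and ulna. It had 465 and 543 estimated counts in PC and 26 and 21 in HC, or 13.51 and 14.1 CPM against 2.111 and 0.9454 CPM. Its level per length was 9.545 and 8.649 TPM in PC and 0.7767 and 0.5453 TPM in HC. Both HC libraries lay far below both PC libraries, which differed little from each other. The fitted level was 9.17-fold lower in HC, a log2 fold change of -3.20 ± 0.61 (SE, n = 2 a group), with an edgeR adjusted p of 0.0479. This is 1 of 27 members, where 1.96% of all genes tested passed in the lower direction. No member rose in edgeR's test, beside 2.75% of all genes. At an unadjusted p under 0.05, 7 members were lower and 1 higher in HC in edgeR, beside 14.4% and 12.7% of all genes, and the Wald test of DESeq2 called 4 members lower and 0 higher after adjustment, beside 8.84% and 9.94% of all genes. Without the filter on low counts edgeR called 3 members lower and 0 higher, beside 7.98% of all genes in either direction. At an unadjusted p under 0.05, 9 members were lower with library size alone (17.6% of all genes) and 4 with a length offset (12.9%). In limma, which tested 19 members, 13 were lower on log2(TPM + 1) and 7 on log2(TPM + 0.1), beside 21% and 19.0% of all genes.

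The call on Hoxa11 is close to its threshold. The edgeR adjusted p was 0.0515 with library size alone and 0.058 with a length offset. Leaving out PC replicate 1 or 2 gave log2 fold changes of -3.25 and -3.18. Leaving out HC replicate 3 or 4 gave -3.89 and -2.75. Each of these fits leaves 1 library in a group, so no p-value is given for them. Annotation places 800 bases of the exons of Hoxa11 opposite those of Hoxa11os, an antisense gene that the tables do not list, and the sources used here do not give the strand setting of the counting, so reads of the pair cannot be told apart.

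Most other HoxA and HoxD members had lower values in HC without passing. Over all 27 members tested, the log2 fold change was below 0 for 20 and above 0 for 7, and the median was -1.03, beside -0.04 over all genes tested. In 17 members both HC libraries lay below both PC libraries, and in 5 both lay above. The same held for 33.3% (below) and 27.7% (above) of all genes. Both HC libraries were below both PC libraries in 8 of 10 members tested in HoxA, 1 of 6 in HoxB, 3 of 5 in HoxC and 5 of 6 in HoxD. The median log2 fold change was -1.26 in HoxA, 0.70 in HoxB, -1.76 in HoxC and -1.27 in HoxD. The positive HoxB median includes Hoxb5 and Hoxb6, which passed the filter through HC alone. The other HoxB members tested, named after their values were seen, had log2 fold changes of -0.52 (Hoxb1), -0.96 (Hoxb2), 0.17 (Hoxb3) and 1.23 (Hoxb4).

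**Figure D2:**
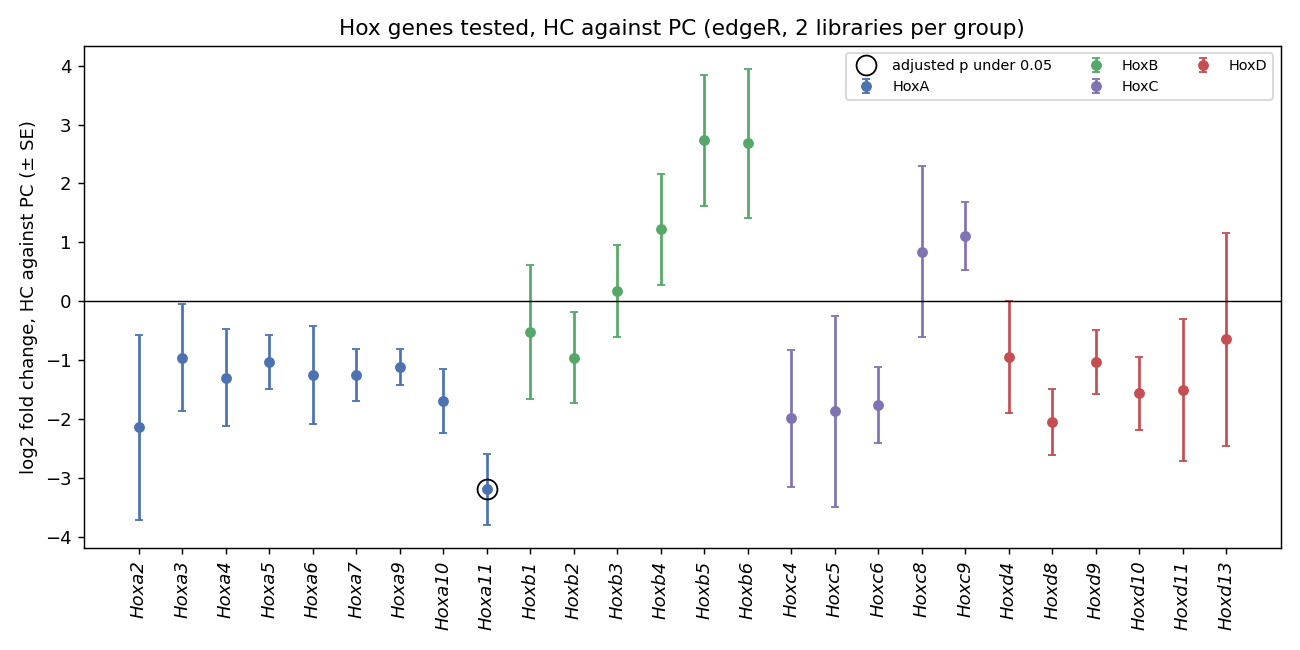
Log2 fold change of HC against PC with its SE (vertical axis) for 26 of the 27 Hox genes tested with edgeR, in order of cluster and paralogue group and coloured by cluster, with the gene past an adjusted p of 0.05 circled. Points lie below 0 for 20 genes, and Hoxa11 is the circled one at -3.20.

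The most abundant members show the size of this difference and the spread of the HC libraries. Hoxa9, which acts with Hoxd9 in the upper arm, had 46.2 and 47.48 TPM in PC and 8.65 and 27.07 TPM in HC. The PC libraries were alike, both HC libraries were lower, and in TPM HC replicate 4 lay well above HC replicate 3. In CPM, the scale of the fit, HC replicates 3 and 4 were closer, at 16.56 and 20.48. The log2 fold change of Hoxa9 was -1.12 ± 0.31 (edgeR adjusted p 0.0946). Hoxa10, also a gene of the upper arm, had 50.08 and 24.71 TPM in PC and 4.211 and 14.25 TPM in HC. Here the PC libraries differed from each other as well, and over all transcripts the groups still did not overlap. The log2 fold change of Hoxa10 was -1.70 ± 0.55 (edgeR adjusted p 0.118). On protein-coding transcripts alone its groups overlapped in CPM (-1.14 ± 1.73, edgeR adjusted p 0.7285).

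Hoxd8, which lies between the low-numbered HoxD genes and those of the limb, had 48.58 and 23.65 TPM in PC and 5.122 and 2.567 TPM in HC. Its HC values were the other way round from those of Hoxa9 and Hoxa10, with HC replicate 4 the lowest library. The log2 fold change was -2.05 ± 0.56 (edgeR adjusted p 0.0912). Hoxd9 had 10.05 and 10.53 TPM in PC and 4.015 and 2.628 TPM in HC, and Hoxd10 had 5.599 and 7.726 TPM in PC and 1.604 and 1.498 TPM in HC. In both genes the groups did not overlap, and their log2 fold changes were -1.03 ± 0.54 and -1.56 ± 0.62 (edgeR adjusted p 0.289 and 0.176).

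Members of the middle of the HoxA cluster set positions along the trunk. Hoxa7 had 11.92 and 12.2 TPM in PC and 2.057 and 4.795 TPM in HC, and Hoxa5 had 9.677 and 9.779 TPM in PC and 2.212 and 4.85 TPM in HC. In both, the PC libraries were close together and both HC libraries were lower, and the log2 fold changes were -1.26 ± 0.44 and -1.03 ± 0.46 (edgeR adjusted p 0.140 and 0.214). Hoxa6 was uneven within PC, with 11.82 and 3.961 TPM, and had 1.81 and 2.595 TPM in HC (-1.26 ± 0.83, edgeR adjusted p 0.390). Hoxa3 lies outside that middle part, towards the low-numbered end of the cluster. It was uneven within HC, with 11.8 and 6.592 TPM in PC and 0.4452 and 6.368 TPM in HC. The fitted log2 fold change of Hoxa3 was -0.96 ± 0.91 (edgeR adjusted p 0.551), and on the CPM scale its groups overlapped. In HoxC, Hoxc6 had 10.94 and 7.145 TPM in PC and 1.991 and 2.448 TPM in HC, with no overlap (-1.76 ± 0.65, edgeR adjusted p 0.153).

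A few members had higher values in HC. Both HC libraries lay above both PC libraries for 5 of the 27 members tested, beside 27.7% of all genes. Among the 5 were Hoxb4, Hoxb5, Hoxb6 and Hoxc9, which are named after their values were seen, and none of the 5 passed edgeR's test. Hoxc9 had 2.138 and 1.764 TPM in PC and 2.669 and 3.173 TPM in HC, a log2 fold change of 1.11 ± 0.58 on the count scale (edgeR adjusted p 0.279). Hoxb5 had 8 and 10 estimated counts in PC and 29 and 22 in HC, all of them assigned to Hoxb5-202, a transcript that retains the intron and not to the coding transcript Hoxb5-201. Its log2 fold change was 2.73 ± 1.11 (edgeR adjusted p 0.184). Hoxb6 had 2.1 and 10.6 estimated counts in PC and 16.6 and 20.1 in HC (2.69 ± 1.26, edgeR adjusted p 0.240). Hoxb5 and Hoxb6 passed the filter through HC alone, where they are high, so their fits lend no support to a rise. These HoxB levels were low: no HoxB gene from group 4 upward exceeded 1.077 TPM in any library.

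Grouped by place along the cluster, the members took the following shares. Groups 4 to 8 took 40.23% and 35.34% of summed Hox TPM in PC and 32.41% and 27.98% in HC. Groups 9 and 10 took 44.74% and 49.32% in PC and 43.41% and 57.1% in HC. Groups 1 to 3 took 8.799% and 7.984% in PC and 8.665% and 14.08% in HC. Groups 11 to 13 took 6.239% and 7.353% in PC, while the HC libraries went apart: replicate 3 had 15.52% and replicate 4 had 0.8352%.

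**Figure D3:**
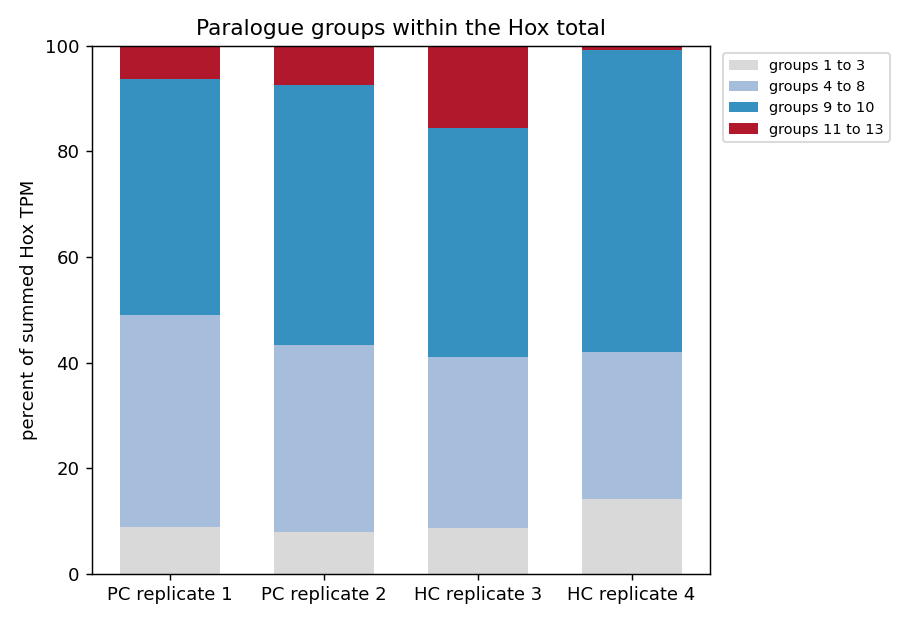
Share of the summed Hox TPM in percent (vertical axis) that each block of paralogue groups took in each library (1 stacked bar per library). Groups 11 to 13 take between 6.239% and 7.353% in the PC libraries, 15.52% in HC replicate 3 and 0.8352% in HC replicate 4.

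A split of the HC libraries in groups 11 to 13 rested on 3 genes. Hoxa13, needed for the digits, had 4 and 0 estimated counts in PC, 65 in HC replicate 3 and 0 in HC replicate 4. Its 5.277 CPM in HC replicate 3 was at least 39.1-fold higher than in HC replicate 4, against a floor of 3 counts in that library. Hoxd13, which acts with Hoxa13 in the digits, had 49 and 41 estimated counts in PC, 20 in HC replicate 3 and 0 in HC replicate 4. HC replicate 3 lay above both PC libraries in CPM (1.624 beside 1.424 and 1.064) and below both in TPM (0.5478 beside 0.9205 and 0.5981). In CPM it was at least 12-fold higher than HC replicate 4. Hoxd11 had 248.9 and 326.7 estimated counts in PC, 65.8 in HC replicate 3 and 6.1 in HC replicate 4, a 19.8-fold difference between the HC libraries in CPM. Floors cover counting error only. Hoxa11, the member of group 11 in HoxA, differed 2.23-fold between the same libraries and was low in both.

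With both HC libraries in the fit, neither Hoxd11 (log2 fold change -1.51 ± 1.21, edgeR adjusted p 0.477) nor Hoxd13 (-0.65 ± 1.82, edgeR adjusted p 0.854) passed, and Hoxa13 was left out by the filter. These values depend on which HC library is used. Without HC replicate 3, Hoxd11 stood at -4.88 and Hoxd13 at -8.31. Without HC replicate 4, Hoxd13 stood at 0.34. Hoxa13 enters that fit through HC replicate 3 alone, the library where it is high, so no test of it is given. In such fits the lone HC library is assumed to vary like the PC libraries. The labels do not say which part of the forelimb each HC library was cut from.

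**Figure D4:**
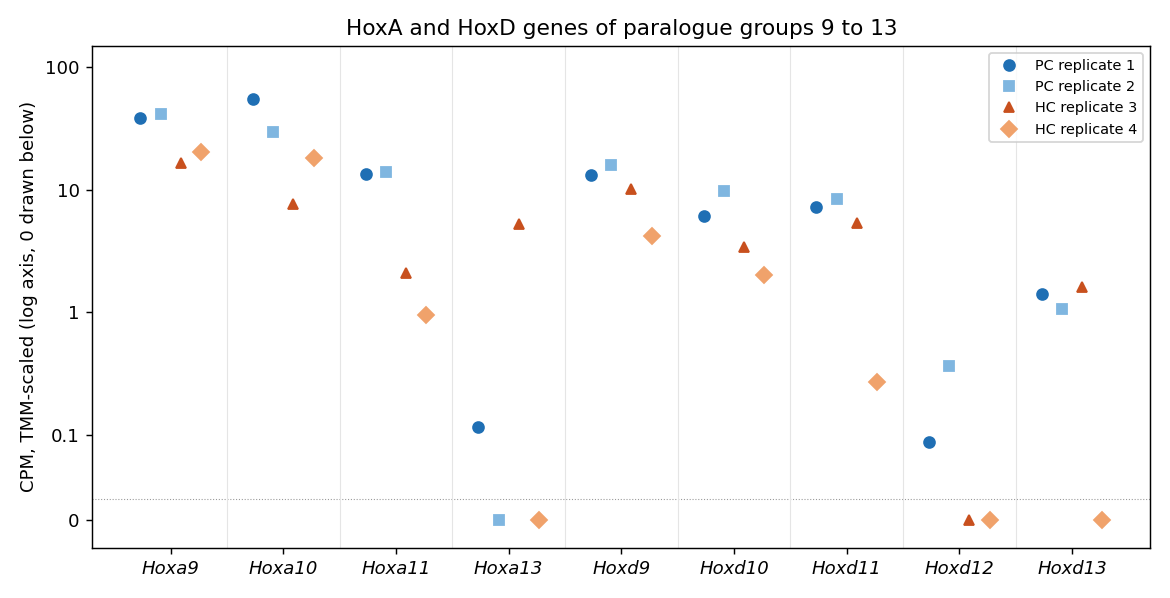
CPM with TMM scaling (vertical log axis, 0 drawn below the dotted line) of the HoxA and HoxD genes of paralogue groups 9 to 13 (horizontal axis), 1 point per library. Hoxa11 is low in both HC libraries (2.111 and 0.9454 CPM), whereas Hoxa13 and Hoxd13 are present in HC replicate 3 (5.277 and 1.624 CPM) and at 0 in HC replicate 4.

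Other genes of the high-numbered groups were near 0. Hoxd12 had 3 and 14 estimated counts in PC and 0 in both HC libraries. Hoxc10, a gene of the hindlimb, had 2, 1, 5 and 3 counts in PC replicates 1 and 2 and HC replicates 3 and 4. Hoxc11 had 1 count, in PC replicate 1, and Hoxc13 had 0, 1, 2 and 1 counts in the same order. A count of 0 allows up to 0.244 CPM in HC replicate 3 and 0.135 CPM in HC replicate 4, by the floor of 3 counts. At this depth a count of 0 therefore does not exclude a level under that.

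The HC libraries, the shallower group, went apart more than the PC libraries, for the members as for all genes. Among the members tested, the direction differed by cluster. Of the 27 members tested, 11 were over 2-fold apart between the HC libraries and 1 between the PC libraries, beside 33.4% and 4.83% of all genes (ratios of CPM + 0.5). All 6 HoxD members tested were higher in CPM in HC replicate 3 than in HC replicate 4, with a median log2 difference of 1.15. Hoxd3, left out by the filter, went the other way, with 0 estimated counts in HC replicate 3 and 27 in HC replicate 4. In TPM Hoxd4 was also lower in HC replicate 3 (0.292) than in HC replicate 4 (0.3915). In HoxA 3 of 10 were higher in HC replicate 3, and the median was -0.49. In HoxC 2 of 5 were higher, with a median of -1.48, and in HoxB 3 of 6, with a median of 0.09. With HC replicate 3 left out, the median log2 fold change of the members in the fit was -1.02, beside -0.11 over all genes. With HC replicate 4 left out, it was -1.33, beside -0.21. Hoxa13 is among the members of that fit, which it enters through HC replicate 3 alone. Hoxa11, Hoxc6 and Hoxd8 stood at -3.89, -2.32 and -2.83 without HC replicate 3. Without HC replicate 4 they stood at -2.75, -1.41 and -1.58. Without PC replicate 1, 0 members passed in edgeR as lower (1.41% of all genes), with 1 at an unadjusted p under 0.05 (5% of all genes, 910 of 18217). Without PC replicate 2, 1 passed as lower (2.98% of all genes), Hoxa10 and not Hoxa11.

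Several Hox genes make more than 1 transcript, and the share in protein-coding transcripts varied between libraries. These shares come from the authors' assignment of reads and have no error of their own here. For Hoxa10, protein-coding transcripts held 34.3% and 48.15% of the counts in PC, 0% in HC replicate 3 and 78.17% in HC replicate 4. Most other counts lay in the processed transcript Hoxa10-203, with 1247.6 and 530.9 counts in PC and 83.4 and 88.8 in HC. For Hoxa9 the coding share was 73.45% and 59.59% in PC and 70.4% and 25.36% in HC. Hoxa9-205, the intron-retaining transcript that holds the miR-196b precursor printed above, had 262 and 279 counts in PC and 16 and 160 in HC, so that HC replicate 4 kept more of it than HC replicate 3.

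The coding transcript Hoxc6-201 took 84.75% and 76.66% of Hoxc6 counts in PC, 72.22% in HC replicate 3 and 5.96% in HC replicate 4. In Hoxd8 the share of Hoxd8-202 was 17.99% and 39.27% in PC and 66.93% and 89.51% in HC, while Hoxd8-201 held 30.57% and 27.06% in PC and 6.858% and 0% in HC. Both of these Hoxd8 transcripts are coding. In Hoxd11 most counts lay in the processed transcript Hoxd11-201, and the coding share was 23.01%, 10.6%, 30.57% and 16.52% in the 4 libraries. Hoxa13 counts in HC replicate 3 were spread as 34.8 on Hoxa13-203, which is coding, and 15.0 each on 2 processed transcripts. In the fit on coding transcripts alone 25 members were tested and the log2 fold change of Hoxa11 was -3.12 (edgeR adjusted p 0.0717). There the groups overlapped for Hoxa10, Hoxd4 and Hoxd11, which did not overlap in the main fit. No gene of the 14595 tested passed in that fit, and 3 members were lower at an unadjusted p under 0.05, beside 13.5% of all genes.

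Shared exons limit some of these values. Exons of 6 members overlap those of another gene of the tables, among them Hoxa3, Hoxc10 and Hoxd3, and exons of 10 members lie opposite those of an annotated gene, so their counts may be split or shared. Of 52 other genes that GENCODE places in the 4 clusters with 10000 bases added on each side, 5 were measured. The one with enough counts for the test, 5730596B20Rik, lies opposite Hoxa3 and had 204.3 and 181 counts in PC and 20 and 42 in HC (log2 fold change -1.59 ± 0.67, edgeR adjusted p 0.197). The other 47 were not analysed here.

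Genes whose proteins work with Hox proteins were taken next. Of the 11 cofactors of the Meis, Pbx, Pknox and Tgif families all were tested, none passed in either direction in edgeR, and the median log2 fold change was 0.21. Meis1, whose protein binds DNA beside those of the high-numbered Hox groups, had 11.15 and 11.65 TPM in PC and 5.292 and 4.297 TPM in HC (-1.21 ± 0.35, edgeR adjusted p 0.0984). Pbx2 was also lower in both HC libraries on the CPM scale (-1.37 ± 0.44, edgeR adjusted p 0.115). Tgif1 was higher in both on that scale (1.64 ± 0.59, edgeR adjusted p 0.149).

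Among 27 Polycomb and Trithorax regulators, 26 were tested and none passed in edgeR, with a median of -0.30. The lowest p belonged to Bmi1, a subunit of Polycomb repressive complex 1, with 7.398 and 11.64 TPM in PC and 38.13 and 22.46 TPM in HC (1.65 ± 0.34, edgeR adjusted p 0.0538). Men1, whose protein is a partner of the activating methyltransferase Kmt2a, was lower in both HC libraries (-1.47 ± 0.41, edgeR adjusted p 0.0914). Kdm6a, which removes the Polycomb mark, was higher in both on the CPM scale (1.12 ± 0.35, edgeR adjusted p 0.113). At an unadjusted p under 0.05 the members of this list went both ways.

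Other genes that mark position in the limb included 2 that rose. Of 27 such genes 22 were tested, 2 rose and none fell. Those that rose were Irx3, with 0.4887 and 0.5894 TPM in PC and 9.591 and 15.01 TPM in HC (4.92 ± 0.44, edgeR adjusted p 0.0359), and Irx5, with 0.5336 and 2.205 TPM in PC and 24.09 and 59.04 TPM in HC (5.27 ± 0.81, edgeR adjusted p 0.0370). Both encode homeodomain proteins of the Iroquois family. Tbx2 and Dlx6 had higher values in both HC libraries (3.49 ± 0.71 and 1.67 ± 0.35, edgeR adjusted p 0.0537 and 0.0573). Tbx5, the forelimb identity gene, had 51.7 and 48.16 TPM in PC and 16.46 and 4.336 TPM in HC (-1.91 ± 0.63, edgeR adjusted p 0.124). Pitx1, a hindlimb identity gene, did not exceed 0.2078 TPM in any library. Other genes of hindlimb identity on this list are not reported here, so Pitx1 does not stand for them. Both are named after their values were seen.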

How the data were processed

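The members and gene lists were chosen with earlier results of these data known. Per the labels' protocols, RNA was isolated with a column kit for small samples and libraries were made from 10 ng with a kit for degraded RNA. The submitters' processing notes name Trimmomatic 0.36, kallisto 0.43.1 and build mm10. Per the file headers, each table gives an estimated count and a TPM for every transcript. Estimated counts, as deposited, are reads assigned by likelihood and need not be whole. TPM, as deposited, is scaled to length and to a fixed total and keeps no depth. The sources used here give no strand setting and no error of the assignment. The range of depths stands in the report.

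Of 109282 transcripts, 107987 matched GENCODE M21 and were summed to 34547 genes. Counts were rounded, filtered with filterByExpr, scaled with TMM (factors 0.812 in HC replicate 3 to 1.14 in PC replicate 1) and tested with edgeR 4.0.16. The SE is the log2 fold change over the root of F. Alternatives used DESeq2 1.42.0 and limma 3.58.1, with R 4.3.3, Python 3.11.15, pandas 2.3.3 and matplotlib 3.10.9. The edgeR step was tested on simulated data. Values in every library are given for members that passed, had a mean of at least 5 TPM, or belong to groups 10 to 13 with any count, and for context genes that passed or, up to 4 a list, had the lowest p. The 16 lists held 218 symbols, of which 217 were found. The values of some genes that these rules name are not reported here.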

Additional observations from a re-analysis of the deposited data

How the results depend on the processing

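The number of members lower in HC at an adjusted p under 0.05 was 1 with edgeR, 1 with DESeq2 size factors, 0 with library size alone, 0 with a length offset, 0 with protein-coding transcripts only, 3 with no filter on low counts, 4 with the DESeq2 Wald test and 0 with limma on log2(TPM + 1) or log2(TPM + 0.1). Where it was 0, 9, 4, 3, 13 and 7 members, in that order, were lower at an unadjusted p under 0.05, beside 17.6%, 12.9%, 13.5%, 21% and 19.0% of all genes. With 1 library left out, the median log2 fold change of the members in the fit lay between -1.33 and -1.02. Members with all HC libraries above all PC libraries numbered 5 in the main analysis, 5 to 8 with 1 library left out, and 1 with either limma setting, which tested 19 members. In the main analysis 27.7% of all genes were placed that way. That share is not given here for the other settings, so their counts cannot be set against all genes. With 1 library in a group, the groups also lie apart more easily. Summed CPM in place of TPM turned the log2 ratio of HoxB from -0.45 to 0.13 and moved HoxC from -1.19 to -0.50 and HoxD from -2.48 to -1.42. Hoxd13 stood at -0.65 and, with 1 library left out, between -8.31 and 0.34, where it turned without HC replicate 4. The cause was not tested. Hoxa11 was below 0 in 12 of 12 alternatives (-3.89 to -2.61). With no library left out, it passed with DESeq2 size factors, with no filter on low counts and with the DESeq2 Wald test. It did not pass with library size alone, a length offset, protein-coding transcripts only or either limma setting. The median of all genes was -0.04 with TMM, -0.29 with library size alone, and -0.51 and -0.64 with limma, where the members stood at -1.03, -1.35, -1.40 and -1.90. No paired analysis was possible because the groups share no replicate number. Depth limits the genes near 0.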

Other observations

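Retinoic acid is a signal that switches on Hox genes in the embryo. Genes listed as its inputs to Hox genes, with its receptors, the Cdx genes and Gdf11 included, went in both directions. Of 21 such genes 15 were tested, 3 rose and 1 fell. Rbp4, which carries retinol in blood, had 14.03 and 14.26 TPM in PC and 79.01 and 141.5 TPM in HC (log2 fold change 3.39 ± 0.31, edgeR adjusted p 0.0359). Aldh1a3, an enzyme that makes retinoic acid, had 2.558 and 6.012 TPM in PC and 45.75 and 177.6 TPM in HC (4.93 ± 0.73, edgeR adjusted p 0.0370). Cyp26b1, which breaks retinoic acid down, fell, with 10.2 and 5.735 TPM in PC and 0.6671 and 1.769 TPM in HC (-2.42 ± 0.46, edgeR adjusted p 0.0479). Aldh1a2 had no count in any library.

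Genes that flank the clusters had a median near 0. Of 17 flanking genes found 14 were tested, 1 rose and none fell, with a median log2 fold change of 0.04. Skap2, which lies beside HoxA, had 7.314 and 7.075 TPM in PC and 14.66 and 36.47 TPM in HC (2.14 ± 0.41, edgeR adjusted p 0.0479). Tax1bp1 on the far side of Hoxa13, Calcoco1 beside HoxC, and Snx10 had higher CPM in both HC libraries (1.57 ± 0.32, 2.33 ± 0.49 and 1.47 ± 0.35, edgeR adjusted p 0.0529, 0.0568 and 0.0737). Evx1 and Evx2, homeobox genes next to Hoxa13 and Hoxd13, had 1 count or none in every library.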
